A study of Mus musculus with 18 samples.

Results

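Day 2 embryoid bodies were compared with the mouse ES cells they were made from, in the first step of a motor neuron differentiation and before any retinoic acid (RA) was given. The comparison used 7 of the 18 arrays of the series, 3 of HBG3 ES cells at day 0 and 4 of HBG3 embryoid bodies at day 2, and took in all 18193 genes that the array's annotation names singly. The other arrays, of the 4 later groups, entered the fit for its estimate of spread. HBG3 is a mouse ES cell line, and no genotype separated the groups. The day 0 cells had been kept in medium with serum and LIF, on feeder cells when amplified and on gelatin when used for experiments, and which surface each day 0 array came from is not given in the sources used here. To make embryoid bodies the cells were trypsinized on day 0 and left to aggregate in a defined mixture with a serum replacement, for which neither serum nor LIF is listed, with the medium exchanged on the first and the second day. RA and a hedgehog agonist were supplied only from day 2 on, and the label of the day 2 arrays names neither. Loss of LIF, loss of serum, aggregation, the new medium and 2 days of culture came together in the day 2 group and cannot be told apart.

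Mouse ES cells kept with LIF and serum resemble the epiblast of the blastocyst before implantation, a state called naive. LIF acts through its receptor and the kinase JAK on the transcription factor STAT3, which keeps a set of factors such as Klf4 and Tfcp2l1 switched on. When the support is withdrawn, cells move toward the epiblast that follows implantation, called primed or formative, which still expresses Oct4 (Pou5f1), switches on genes such as Fgf5, and is competent to form neural tissue, mesoderm and endoderm.

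Values are log2 signals normalized by the authors, and a gene is represented by its brightest probe set, a group of short probes that reads 1 stretch of transcript. A gene was called when limma, a linear model that borrows variance between genes, fitted on all 18 arrays, gave an adjusted p under 0.01 and a difference of at least 2-fold. Differences are day 2 minus day 0 on the log2 scale with their standard error (SE), levels with ± are mean ± SD, n was 3 at day 0 and 4 at day 2, and a fold against a group whose arrays all lay under log2 4, taken as background, is a lower bound.

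The arrays of each group were not alike, and the results have to be read with this. The day 2 arrays formed 2 pairs: over the 14728 brighter probe sets, replicates 1 and 2 correlated at 0.981 and replicates 3 and 4 at 0.972, against 0.909 to 0.947 between the pairs. Among day 0 arrays the correlations were 0.922 to 0.944, and replicates 2 and 3 carried signals of fibroblast genes that replicate 1 lacked. Lox, a collagen cross-linking enzyme, read 3.51, 10.17 and 10.16 on the 3 day 0 arrays, and Cav1, the caveolin of many mesenchymal cells, read 2.36, 8.31 and 9.45. S100a4, a marker of fibroblasts, read 2.23, 11.29 and 9.92, and these 3 genes were chosen after their values were seen. Of 22 fibroblast markers, 10 reached background level on day 0 replicate 1, 19 on replicate 2 and 18 on replicate 3, against 8 to 10 on the day 2 arrays. Lum, a defining fibroblast proteoglycan, was at the floor of the array on all 7 arrays, and Dcn, another, read 5.64, 2.99 and 4.62 on the day 0 arrays and 4.86, 4.41, 2.23 and 3.7 on the day 2 arrays. Both were chosen after their values were seen. The summed linear signal of the 22 was 1441 on day 0 replicate 1, 8370 and 12436 on replicates 2 and 3, and 1022 to 4920 at day 2. Naive genes did not follow this split, with a median level of the naive list of 10.2, 9.82 and 10.1 on the 3 day 0 arrays. In such bulk RNA, fewer cells of a type and less RNA per cell cannot be told apart.

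At day 2, 304 genes were higher than at day 0 and 392 were lower, 1.67% and 2.15% of the genes tested. Of these, 161 were higher and 236 lower by at least 4-fold, and in all 696 the values of the groups did not overlap, as in 15.3% of all genes. The median difference over all genes was 0. At an unadjusted p under 0.05 in the same limma fit, 1769 genes were higher and 2088 lower. Of 399 called genes with several probe sets, 275 had no other probe set called. Among these were Esrrb (1 of 3 called), Il6st (1 of 4), Fgf5 and Inhbb (1 of 2 each). No called gene had probe sets called in both directions. The calls rested on the spread estimated from all 18 arrays: with the 7 arrays of the 2 groups alone, 21 genes were called higher and 33 lower. Without day 2 replicates 3 and 4 the counts were 156 higher and 312 lower, and without replicates 1 and 2 they were 362 higher and 267 lower. Without day 0 replicates 2 and 3, the arrays with fibroblast signal, they were 240 higher and 406 lower.

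**Figure D1:**
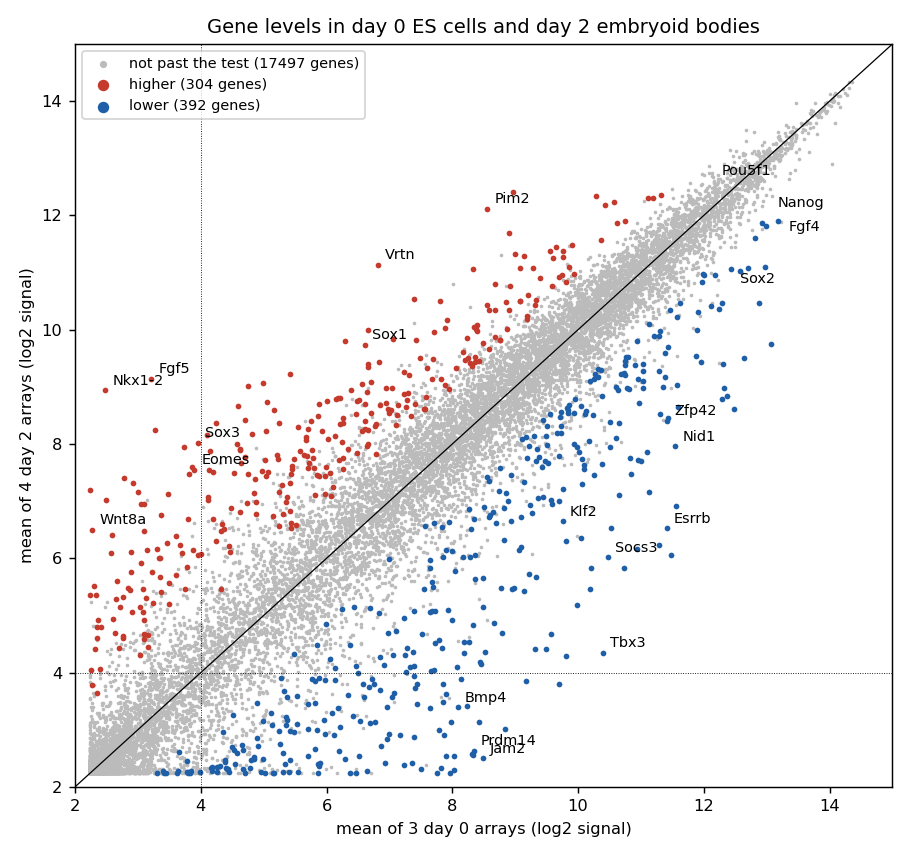
Mean log2 signal of each of the 18193 genes on the 3 day 0 arrays (x axis) and the 4 day 2 arrays (y axis), with called genes in red (304 higher at day 2) and blue (392 lower). The solid line marks equal levels and the dotted lines log2 4, the background. Nkx1-2 and Fgf5 lie far above the line, Tbx3 and Prdm14 far below it, and Pou5f1 and Nanog close to it.

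The 15 largest rises among clearly detected genes began with Nkx1-2, a homeobox gene of the late epiblast and the neuromesodermal region of the embryo. Nkx1-2 read 2.48, 2.71 and 2.25 on the day 0 arrays and 8.85, 9.25, 8.59 and 9.06 on the day 2 arrays, a difference of 6.46 ± 0.79 (SE), adjusted p = 2.99e-04, at least 30.7-fold higher. Every day 0 array of it lay under background. Fgf5, the growth factor that marks the epiblast after implantation, came next with 3.79, 2.4 and 3.46 on the day 0 arrays and 8.92, 9.41, 9.0 and 9.23 on the day 2 arrays (5.93 ± 0.26, adjusted p = 3.3e-08). The next were Slc35d3, a nucleotide sugar transporter family member (4.97 ± 0.38, adjusted p = 5.72e-06), and Calcr, the calcitonin receptor (4.95 ± 0.22, adjusted p = 3.47e-08). Sp8, a zinc finger factor of the neural ridge and limb, and Fabp7, the fatty acid binding protein of radial glia, differed by 4.63 and 4.53. Vrtn, named for its effect on vertebral number, was already present at day 0 and rose from 8.01, 5.1 and 7.35 to 11.04, 11.12, 11.08 and 11.31, 19.9-fold higher. The other 8 were Armcx6, St8sia3, Wnt8a, Fam131b, 2610035F20Rik, Sema6a, Car14 and Tubb4a, with differences of 4.08 to 4.39. Fam131b was read by a probe set of a design that may cross-hybridize, and 1 of its 2 probe sets was called. Its difference ranged down to 0.67 among the alternative fits. Of the 15, Tubb4a alone lost its call when a single array was left out, without day 0 replicate 1 (adjusted p up to 0.0106).

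The 15 largest falls began with Tbx3, a T-box factor of the naive network. Tbx3 read 10.31, 11.29 and 9.59 on the day 0 arrays and 5.51, 4.95, 3.65 and 3.26 on the day 2 arrays, a difference of -6.05 ± 0.57 (SE), adjusted p = 3.76e-05, 66.4-fold lower. Jam2, a junctional adhesion molecule, read 8.02, 7.87 and 9.57 on the day 0 arrays and 2.67, 2.24, 2.69 and 2.39 on the day 2 arrays (-5.99 ± 0.56, adjusted p = 3.26e-05). Hsd17b14, a steroid dehydrogenase, differed by -5.89, Smtnl1, a smoothelin-like protein, by -5.77, and Prdm14, a PR-domain regulator of naive cells and germ cells, by -5.71. Tcl1, a co-activator of the kinase Akt, differed by -5.5, and Inhbb, the beta B subunit of activin and inhibin, by -5.48. Anxa1 (annexin), Bgn (the matrix proteoglycan biglycan) and Cryab (a small heat shock protein) were also among the 15, and on the 3 day 0 arrays they read 7.21, 9.42 and 9.87, 4.74, 10.35 and 8.98 and 6.84, 8.89 and 9.18. All 3 were lower on replicate 1, the day 0 array with the weakest fibroblast signal, than on replicates 2 and 3. The part of the fibroblast signal in these differences was not tested. On replicate 1 alone the 3 genes still lay above the 4 day 2 arrays. The rest were Calcoco2, Ak7, Irak3, AU015836 and 4930444M15Rik, with differences of -5.36 to -5.72. None of the 15 lost its call when a single array was left out.

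Most of the naive pluripotency genes looked at fell. Of 27 measured members of a list of naive genes, 17 were lower at day 2, 63% against 2.15% of all genes, none was higher, and the median difference was -3.07. Esrrb, the nuclear receptor that binds many ES cell enhancers, read 11.23, 12 and 11 on the day 0 arrays and 7.71, 5.66, 5.87 and 6.89 on the day 2 arrays (-4.88 ± 0.47, adjusted p = 4.29e-05). Tfcp2l1, a grainyhead-family factor downstream of STAT3, read 10.36, 11.23 and 10.60 on the day 0 arrays and 6.82, 4.11, 6.55 and 5.86 on the day 2 arrays (-4.89 ± 0.48, adjusted p = 4.74e-05). For both, each day 0 array stood more than 3 log2 units above each day 2 array.

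Klf2, a Krüppel-like factor, fell evenly from 9.39, 9.82 and 10.05 to 6.7, 6.69, 6.61 and 6.58, 8.64-fold lower (adjusted p = 4.14e-06). Zfp42 (Rex1), the usual marker of naive cells, fell from 11.47, 11.48 and 11.32 to 8.98, 8.52, 7.82 and 8.3, 8.09-fold lower, and so was still well above background on every day 2 array. Prdm14 and Tcl1, by contrast, were under background on all 4 day 2 arrays, so their falls of at least 20.3-fold and at least 16.4-fold are bounds. Nr0b1 (Dax1), a nuclear receptor without a DNA-binding domain, and Klf5, both chosen after their values were seen, also fell (-4.77 ± 0.3 and -4.73 ± 0.88). Klf5 was uneven at day 2, with 5.92, 2.95, 6.32 and 6.64. Fbxo15, an F-box gene of ES cells, Sox15 and Ooep, a protein of oocytes and early embryos, were named after their values were seen and fell too, with differences of -3.99 ± 0.47, -3.84 ± 0.24 and -3.13 ± 0.4.

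Klf4 was not called by its brightest probe set. It read 8.52, 11.22 and 10.19 on the day 0 arrays and 8.03, 8.19, 4.57 and 4.8 on the day 2 arrays, and the 4 values of day 2 split between the pairs of arrays, and its difference did not pass (-3.58 ± 1.06, adjusted p = 0.0786). The dimmer of its 2 probe sets did pass the test, so the probe sets disagree. Nr5a2 (Lrh1), a nuclear receptor of the same network (-2.31 ± 0.58, adjusted p = 0.0369), and Dppa3 (Stella), a maternal factor (-1.92 ± 0.6, adjusted p = 0.0935), both chosen after their values were seen, had lower means at day 2 and did not pass by their brightest probe sets, though 2 of the 4 probe sets of Nr5a2 were called lower. Single arrays decided some calls, which were lost for Klf5 without day 0 replicate 1 or 2 or day 2 replicate 1 or 3 (adjusted p up to 0.0328), Stat3 without day 0 replicate 2 or 3 or day 2 replicate 1 or 2 (adjusted p up to 0.0172) and Pecam1 without day 0 replicate 2 (adjusted p up to 0.0109). Without day 0 replicates 2 and 3, 12 naive genes were called, without day 2 replicates 1 and 2, 13, and with the arrays of the 2 groups alone, 3.

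The general pluripotency factors, which primed cells also express, behaved differently from one another. Of 19 measured, 4 were lower, 21.1% against 2.15% of all genes, none was higher and the median difference was -0.29. Pou5f1 (Oct4), the POU factor needed in both states, read 12.57, 12.18 and 11.78 on the day 0 arrays and 12.53, 11.92, 12.75 and 12.84 on the day 2 arrays, overlapping between the groups (0.33 ± 0.5, adjusted p = 0.954). Nanog, a homeobox factor, read 12.79, 13.24 and 13.12 on the day 0 arrays and 12.53, 12.91, 12.56 and 11.84 on the day 2 arrays, also overlapping (-0.59 ± 0.51, adjusted p = 0.716). A 2-fold fall of Nanog lies within 1 SE of its estimate, so these values do not show that its level was the same.

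Sox2, the partner of Oct4, was called lower, 2.59-fold (-1.37 ± 0.27, adjusted p = 0.00929), and read 12.43, 12.39 and 12.49 on the day 0 arrays and 11.57, 11.43, 10.68 and 10.57 on the day 2 arrays. The fall was larger on day 2 replicates 3 and 4 than on replicates 1 and 2, and the call was lost without day 0 replicate 1, 2 or 3 or day 2 replicate 2, 3 or 4 (adjusted p up to 0.0316). Fgf4, the growth factor through which ES cells signal to themselves, fell from 13.23, 13.19 and 13.11 to 12.02, 11.60, 11.88 and 12.14 (-1.27 ± 0.12, adjusted p = 4.67e-05). Mybl2, a Myb factor of cycling cells, fell by 2.53 ± 0.4 (adjusted p = 0.00194). Zfp296, a zinc finger protein of ES cells and germ cells, fell by 3.48 ± 0.58 (adjusted p = 0.00296), and the call was lost without day 0 replicate 3 (adjusted p up to 0.0128). Without day 0 replicate 3 the list thus had 2 calls, and without day 0 replicates 2 and 3 it had 1.

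The LIF-STAT3 pathway was lower at its receptor, at its transcription factor and at several of its targets. Of 19 measured members 8 were lower, 42.1% against 2.15% of all genes, none was higher, and the median difference was -1.26. Stat3 and Tfcp2l1 are counted in this list as well as among naive genes. At the receptor, Lifr read 10.61, 10.64 and 9.54 on the day 0 arrays and 8.02, 7.64, 7.23 and 6.92 on the day 2 arrays, 6.99-fold lower (adjusted p = 1.55e-04). Its co-receptor Il6st (gp130), chosen after its values were seen, read 9.97, 9.78 and 9.79 on the day 0 arrays and 8.55, 8.58, 8.57 and 8.66 on the day 2 arrays, 2.39-fold lower (adjusted p = 1.37e-05). Both groups were tight for Il6st.

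Stat3 itself read 7.42, 8.2 and 8.37 on the day 0 arrays and 4.51, 4.31, 5.7 and 5.17 on the day 2 arrays (-3.07 ± 0.52, adjusted p = 0.00343), and its call was lost without day 0 replicate 2 or 3 or day 2 replicate 1 or 2 (adjusted p up to 0.0172). Socs3, the feedback inhibitor that STAT3 induces, showed a difference of -4.47 ± 0.36 (SE), adjusted p = 8.75e-06. It read 11.24, 10.61 and 9.58 on the day 0 arrays and 6.48, 5.86, 5.65 and 6.06 on the day 2 arrays, 22.1-fold lower, and all 3 of its probe sets were called. Bcl3, a nuclear IkB protein, read 8.0, 7.28 and 8.34 on the day 0 arrays and 2.26, 2.26, 4.42 and 2.66 on the day 2 arrays (-4.97 ± 0.51, adjusted p = 7.4e-05), and Icam1, an adhesion molecule with STAT and NF-kB inputs, fell by 3.66 ± 0.38 (adjusted p = 7.9e-05). Pim3, a kinase gene downstream of STAT3 that was chosen after its values were seen, fell less (-1.63 ± 0.24, adjusted p = 0.0012). Genes for the kinases of the pathway, Jak1 and Jak2, did not pass, and read 7.6 to 8.28 at day 0 and 6.68 to 7.84 at day 2, and 7.16 to 8.4 at day 0 and 6.77 to 7.91 at day 2.

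Genes of the primed epiblast rose, though not the whole list. Of 25 measured members 8 were higher, 32% against 1.67% of all genes, none was lower, and the median difference was 0.96. Fgf5 is described above. Wnt8a, a Wnt ligand of the epiblast and streak, was at the floor of the array at day 0 and nearly the same on all 4 day 2 arrays, 6.37, 6.58, 6.44 and 6.6 (4.23 ± 0.08, adjusted p = 3.3e-11, at least 5.65-fold higher). Pim2, a kinase that promotes survival, was high already and rose from 8.96, 7.61 and 9.1 to 11.80, 12.15, 12.27 and 12.24 (11.8-fold, adjusted p = 3.75e-05).

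Sall2, a spalt zinc finger factor, rose from 5.95, 4.18 and 6.14 to 8.75, 9.31, 9.29 and 9.53 (3.8 ± 0.4, adjusted p = 8.9e-05), and Sox3, a SoxB1 factor like Sox2, from 4.66, 3.03 and 4.18 to 7.73, 7.46, 8.63 and 8.26 (4.06 ± 0.43, adjusted p = 8.85e-05). Sox3 and Sox2 thus moved in opposite directions. Car4, a carbonic anhydrase (2.15 ± 0.4, adjusted p = 0.00611), Zic2, a zinc finger factor (2.0 ± 0.36, adjusted p = 0.00525), and Tead2, a factor that works with YAP (1.24 ± 0.22, adjusted p = 0.00447), also rose. Single arrays cost the calls of Car4 without day 0 replicate 2 or 3 or day 2 replicate 1, 3 or 4 (adjusted p up to 0.0237), Zic2 without day 2 replicate 1, 2 or 3 (adjusted p up to 0.0172) and Tead2 without day 0 replicate 1 or 3 or day 2 replicate 1, 3 or 4 (adjusted p up to 0.0187). Of the whole list 5 members were called without day 2 replicate 1 and 5 without day 2 replicate 3, and 2 with the arrays of the 2 groups alone.

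Several of the best known primed genes were already high at day 0 and did not pass. Otx2, a homeobox factor of the epiblast and forebrain, read 9.77, 8.18 and 7.58 on the day 0 arrays and 9.83, 9.67, 9.25 and 9.89 on the day 2 arrays (1.15 ± 0.42, adjusted p = 0.175), with day 0 replicate 1 inside the range of day 2, and of the fits that left out 1 array it was called only without that one. Pou3f1 (Oct6) read 11.16, 10.39 and 11.02 on the day 0 arrays and 12.09, 12.10, 11.65 and 11.10 on the day 2 arrays (0.88 ± 0.45, adjusted p = 0.402). Dnmt3b, a de novo DNA methyltransferase, read 12.64, 11.83 and 12.51 on the day 0 arrays and 13.16, 13.19, 12.89 and 12.38 on the day 2 arrays (0.58 ± 0.24, adjusted p = 0.259), and Dnmt3a, chosen after its values were seen, had a difference of 0.83 ± 0.18 (SE), adjusted p = 0.0173. Lef1, a factor of the Wnt pathway also chosen so, differed by 2.78 ± 1.0, adjusted p = 0.16, and read 9.72, 4.63 and 9.69 on the day 0 arrays, one of which was far below the others.

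**Figure D2:**
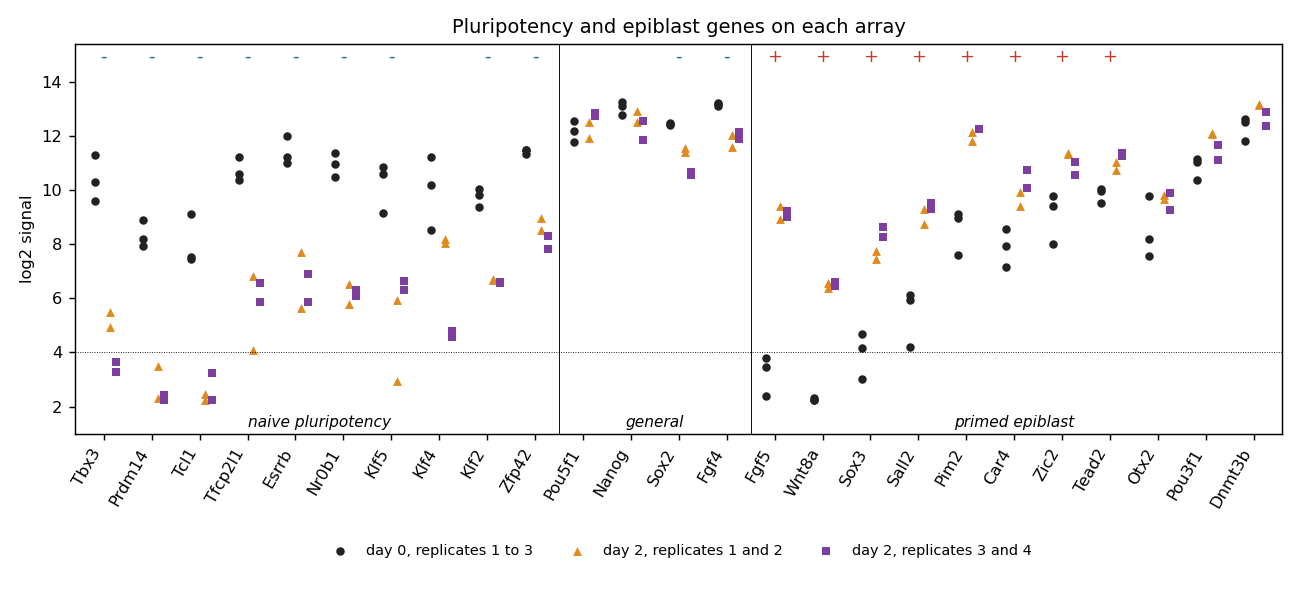
Log2 signal (y axis) of 25 pluripotency and epiblast genes on each array, black circles for day 0, orange triangles for day 2 replicates 1 and 2 and purple squares for day 2 replicates 3 and 4. A + or - at the top marks a gene called higher or lower at day 2, and the dotted line marks background. The day 0 circles of the naive genes lie above the day 2 symbols, Klf4 included, though it was not called, Pou5f1 and Nanog overlap, and Fgf5, Wnt8a, Sox3 and Sall2 lie far higher at day 2.

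Signalling by Nodal, the TGF-beta ligand that maintains the epiblast and patterns the streak, changed at few of its genes. Of 21 members 2 were higher and 1 lower, 9.52% and 4.76% against 1.67% and 2.15% of all genes, with a median difference of -0.1. Nodal read 11.44, 11.09 and 11.11 on the day 0 arrays and 11.55, 11.66, 11.45 and 11.59 on the day 2 arrays (0.35 ± 0.2, adjusted p = 0.481), and Lefty1, its secreted inhibitor and target, read 7.86, 10.05 and 9.45 on the day 0 arrays and 10.49, 10.01, 10.21 and 9.53 on the day 2 arrays (0.94 ± 0.38, adjusted p = 0.244). Foxh1, the DNA-binding partner of the SMADs, rose from 8.44, 8.59 and 8.41 to 9.66, 9.58, 9.79 and 10.01 (1.28 ± 0.18, adjusted p = 0.00104). Fst, the secreted activin antagonist follistatin, rose from 7.0, 8.93 and 9.06 to 10.87, 11.58, 11.10 and 10.67 (2.73 ± 0.5, adjusted p = 0.00608), a call lost without day 0 replicate 1 or day 2 replicate 1, 2, 3 or 4 (adjusted p up to 0.0192), each of which left 1 rise in the list. Inhbb, which encodes an activin subunit, fell from 7.04, 8.45 and 7.94 to under background on all day 2 arrays, at least 14-fold (adjusted p = 1.26e-07). Without day 0 replicate 1 the list had 2 falls, and without day 2 replicates 3 and 4 it had no rise.

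Markers of the streak and mesendoderm were mostly silent. Of 27 such genes, 18 had both group means under background, as had 7361 of all 18193 genes. Only Eomes was called, at 3.7% against 1.67% of all genes. Eomes, a T-box gene that the streak and the trophoblast share, read 3.99, 2.98 and 4.72 on the day 0 arrays and 6.83, 7.75, 7.44 and 8.16 on the day 2 arrays (3.65 ± 0.36, adjusted p = 4.85e-05). Mixl1 and Wnt3, early streak genes chosen after their values were seen, had higher means at day 2 (1.97 ± 0.5, adjusted p = 0.0378, and 2.53 ± 0.61, adjusted p = 0.0292) and, of the fits that left out 1 array, passed only without day 0 replicate 3, the day 0 array on which they were brightest. That fit called 4 members of the list. Of 27 extraembryonic endoderm genes none was called by limma (1 was higher and 6 lower at an unadjusted p under 0.05). Gata6 and Sox17, its defining factors, were under background on all 7 arrays. Other members were detected, as 9 to 14 of the 27 reached background level on each array, and 14 had both group means under it.

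Of 20 trophoblast genes 4 were lower and 1, Eomes, was higher, 20% and 5% against 2.15% and 1.67% of all genes. The 4 that fell were Bmp4, Rhox6, Tfap2c and Krt7, and Bmp4 is described with its pathway. Tfap2c, an AP-2 factor, read 12.30, 12.45 and 12.15 on the day 0 arrays and 10.95, 9.28, 8.31 and 9.07 on the day 2 arrays (-2.9 ± 0.57, adjusted p = 0.009), and Krt7, a keratin of simple epithelia, fell by 2.78 ± 0.5 (adjusted p = 0.00501). Rhox6, a homeobox gene of placenta and germ line, fell by 3.15 ± 0.58 (adjusted p = 0.00597). Not every call survived the loss of 1 array, as shown by Tfap2c without day 0 replicate 1, 2 or 3 or day 2 replicate 2, 3 or 4 (adjusted p up to 0.0378), Krt7 without day 0 replicate 3 or day 2 replicate 1, 2 or 3 (adjusted p up to 0.0166) and Rhox6 without day 0 replicate 1 or 3 or day 2 replicate 1, 2 or 3 (adjusted p up to 0.0278). The count of falls was 1 without day 0 replicate 3, 1 without day 2 replicate 2, 1 without day 2 replicate 3 and 2 without day 2 replicate 1, and the count of rises was 2 without day 0 replicate 3.

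Some early neural genes rose before RA was given. Of 28 measured genes of neural progenitors 7 were higher, 25% against 1.67% of all genes, and 2 were lower, 7.14% against 2.15%. The median difference was 0.27. Sox1, the SoxB1 factor that marks the neural plate, read 6.13, 6.89 and 6.82 on the day 0 arrays and 9.2, 9.95, 10.22 and 9.57 on the day 2 arrays (3.13 ± 0.24, adjusted p = 5.18e-06, 8.73-fold higher). All 4 day 2 values lay more than 2 log2 units above every day 0 value. Fabp7 rose from under background to 5.97, 7.61, 6.8 and 7.71.

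Zfp521, a zinc finger factor needed for neural commitment of ES cells, rose to a low level, from 2.72, 3.34 and 3.18 to 4.34, 5.64, 5.57 and 4.68 (1.98 ± 0.32, adjusted p = 0.00223). Prom1 (CD133), a membrane protein of neuroepithelial cells, rose from 9.68, 9.7 and 9.56 to 11.38, 11.69, 11.46 and 11.29 (1.81 ± 0.21, adjusted p = 1.71e-04). Ncan, a proteoglycan of neural tissue named after its values were seen, rose by 1.61 ± 0.29 (adjusted p = 0.00515). Sox3 and Zic2 are counted in this list as well as among primed genes. Leaving out 1 array ended the calls of Zfp521 without day 0 replicate 1 (adjusted p up to 0.0117), Ncan without day 0 replicate 2 or 3 or day 2 replicate 1, 3 or 4 (adjusted p up to 0.0242) and Zic2 without day 2 replicate 1, 2 or 3 (adjusted p up to 0.0172), and 4 members were called without day 2 replicates 3 and 4.

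Pax6, which marks neural progenitors later in this differentiation, read 2.25, 4.47 and 6.38 on the day 0 arrays and 3.3, 5.31, 5.34 and 4.4 on the day 2 arrays and did not differ beyond its spread (0.22 ± 0.91, adjusted p = 1). Hesx1, a homeobox factor of the anterior epiblast and forebrain, fell from 6.9, 6.59 and 7.4 to under background (-4.12 ± 0.21, adjusted p = 9.37e-08), and Sox2, the other member that fell, is given above. With most single arrays left out Hesx1 was the only fall in the list. Of 23 pan-neuronal genes 1 was higher and 2 were lower, 4.35% and 8.7% against 1.67% and 2.15% of all genes. Rises were 2 without day 0 replicate 1 or without day 2 replicate 1. Dcx, the microtubule protein doublecortin, rose from 3.07, 2.23 and 2.5 to 4.91, 4.95, 4.91 and 4.96, at least 1.91-fold higher, close to background. Mapt (tau) fell from 5.13, 5.22 and 4.19 to under background, and Dpysl3, a cytosolic protein of growth cones, fell by 1.39 ± 0.17 (adjusted p = 2.58e-04). Hox genes were nearly all silent, with 25 of 33 under background in both groups. None was higher and 2, Hoxd9 and Hoxc4, were lower, 6.06% against 2.15% of all genes. Their calls were lost for Hoxd9 without day 0 replicate 2 or 3 or day 2 replicate 1, 2, 3 or 4 (adjusted p up to 0.0246) and Hoxc4 without day 0 replicate 2 or day 2 replicate 3 (adjusted p up to 0.015).

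Ligands of the BMP, Wnt and growth factor families changed one by one and in both directions. Bmp4, a ligand that with LIF supports naive cells, read 7.63, 8.12 and 8.49 on the day 0 arrays and 3.31, 2.97, 3.33 and 3.96 on the day 2 arrays (-4.69 ± 0.62, adjusted p = 5.65e-04, at least 16.9-fold lower). Id1, a helix-loop-helix inhibitor that BMP induces, fell from 6.48, 5.11 and 6.68 to under background on all 4 day 2 arrays, at least 4.26-fold (adjusted p = 3.96e-04). Id3, another such target, read 7.39, 7.18 and 7.75 on the day 0 arrays and 8.25, 7.97, 6.92 and 7.95 on the day 2 arrays and was not called (0.34 ± 0.34, adjusted p = 0.786). Of 28 BMP pathway and Id genes, Bmp4 and Id1 were the 2 called, 7.14% against 2.15% of all genes, and without day 0 replicates 2 and 3 the list kept 1.

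In the Wnt list of 32 genes 3 were higher and 2 lower, 9.38% and 6.25% against 1.67% and 2.15% of all genes. Besides Wnt8a, Sfrp2, a secreted Wnt modulator, rose from 8.37, 8.8 and 10.24 to 11.37, 11.51, 11.24 and 11.07 (2.16 ± 0.36, adjusted p = 0.00296), and Fzd2, a receptor, from 8.9, 8.48 and 9.16 to 10.35, 10.66, 10.31 and 10.60 (1.63 ± 0.17, adjusted p = 8.9e-05). Fzd5, another receptor, fell by 1.91 ± 0.35 (adjusted p = 0.00584), and Wnt5a, a ligand of the non-canonical branch, from 5.07, 5.52 and 5.83 to under background (-2.52 ± 0.27, adjusted p = 9.61e-05). The calls were lost for Sfrp2 without day 0 replicate 1 or 2 (adjusted p up to 0.0173) and Fzd5 without day 0 replicate 1, 2 or 3 or day 2 replicate 1, 2, 3 or 4 (adjusted p up to 0.0255). Rises were 2 without day 0 replicate 1 or 2, and falls were 1 without any single array of either group.

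Among 37 growth factor ligands and receptors 3 were higher and 6 lower, 8.11% and 16.2% against 1.67% and 2.15% of all genes. Ptn (pleiotrophin) and Mdk (midkine), heparin-binding factors of 1 small family, both rose, Ptn from 7.19, 6.8 and 7.19 to 9.85, 10.52, 9.81 and 9.2 (2.78 ± 0.31, adjusted p = 1.31e-04) and Mdk by 1.19 ± 0.22 (adjusted p = 0.00565). Cxcl12, a chemokine that fibroblasts also make, rose by 2.51 ± 0.34 (adjusted p = 6.91e-04). Besides Bmp4, Vegfc, a ligand of lymphatic growth (-3.66 ± 0.29, adjusted p = 8.83e-06), Hbegf, an EGF receptor ligand (-3.4 ± 0.45, adjusted p = 5.93e-04), Pdgfa and Pdgfc, the PDGF ligands (-2.35 and -2.26), and Nrp2, a co-receptor (-3.29), fell. Single arrays cost the calls of Mdk without day 0 replicate 2 or 3 or day 2 replicate 1, 3 or 4 (adjusted p up to 0.0257) and Pdgfc without day 0 replicate 2 (adjusted p up to 0.0131), and 3 of the 6 falls were called without day 0 replicates 2 and 3.

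Several genes linked to DNA methylation fell. Of 22 members 5 were lower, 22.7% against 2.15% of all genes, and none was higher. Tet2 and Zfp57 are counted in this list as well as among naive genes. Tet2, which oxidizes methylcytosine, read 11.63, 11.25 and 11.90 on the day 0 arrays and 8.97, 8.32, 9.72 and 7.59 on the day 2 arrays (-2.94 ± 0.45, adjusted p = 0.00165). Dnmt3l, the cofactor of the de novo enzymes, fell from 11.72, 11.01 and 11.16 to 9.19, 8.33, 7.84 and 8.74, 6.82-fold (adjusted p = 2.57e-04), while Dnmt3b and Dnmt3a, the enzymes it assists, were not called. Zfp57, which protects methylation at imprinted loci, fell from 11.45, 11.11 and 11.50 to 8.98, 8.22, 9.05 and 9.76 (-2.35 ± 0.33, adjusted p = 7.98e-04). Apobec1, a cytidine deaminase, and Mbd2, a methyl-CpG binding protein, also fell (-2.19 ± 0.41, adjusted p = 0.00657, and -1.17 ± 0.19, adjusted p = 0.00263). Not every call survived the loss of 1 array, as shown by Apobec1 without day 0 replicate 1 or 2 or day 2 replicate 1, 2, 3 or 4 (adjusted p up to 0.0356) and Mbd2 without day 0 replicate 2 or day 2 replicate 3 (adjusted p up to 0.015), 3 members were called without day 0 replicate 2 and 3 without day 2 replicate 3, and 1 was called without day 0 replicates 2 and 3.

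Several enzymes of cholesterol synthesis rose. Of 28 measured genes of sterol synthesis, uptake and transport 8 were higher, 28.6% against 1.67% of all genes, none was lower, and the median difference was 1.11. All 8 were enzymes of the path from isopentenyl diphosphate to cholesterol except Stard4, which carries sterol between membranes. Sc5d, a late-step desaturase, read 6.82, 6.44 and 6.85 on the day 0 arrays and 8.48, 8.47, 9.63 and 9.8 on the day 2 arrays (2.39 ± 0.35, adjusted p = 0.00114, 5.24-fold higher). Lss, which closes the rings to lanosterol, read 9.13, 7.69 and 8.83 on the day 0 arrays and 10.31, 10.13, 10.79 and 10.51 on the day 2 arrays (1.89 ± 0.27, adjusted p = 0.00109). Day 2 replicates 3 and 4 were higher than replicates 1 and 2 for both.

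Sqle, the epoxidase before Lss, differed by 1.8 ± 0.31, adjusted p = 0.00381, and Msmo1, a methyl sterol oxidase, by 1.82 ± 0.32, adjusted p = 0.00486. Hsd17b7, a sterol ketoreductase, rose from 7.6, 7.19 and 7.99 to 9.45, 9.4, 9.31 and 9.13 (1.73 ± 0.22, adjusted p = 4.9e-04), and Stard4 by 2.24 ± 0.41 (adjusted p = 0.00537). Idi1, the isopentenyl diphosphate isomerase, and Cyp51, the lanosterol demethylase, which complete the 8 and were named after their values were seen, rose by 1.66 ± 0.32 and 1.5 ± 0.15. A further 6 members were at least 2-fold higher without passing, among them Fdps, the farnesyl diphosphate synthase (2.53 ± 0.64, adjusted p = 0.0386), Pmvk (1.53 ± 0.33, adjusted p = 0.0153), Mvd (1.48 ± 0.32, adjusted p = 0.0158) and Nsdhl (1.32 ± 0.34, adjusted p = 0.0448), all chosen after their values were seen. Abca1, the exporter of cholesterol, chosen so too, was lower on every day 2 array, 6.15, 5.46, 4.32 and 3.78 against 8.23, 9.07 and 8.33, and narrowly missed the threshold (-3.62 ± 0.76, adjusted p = 0.0132).

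The first enzyme on the list, Hmgcs1, read 13.28 to 13.76 at day 0 and 13.60 to 14.17 at day 2 and did not pass (0.51 ± 0.15, adjusted p = 0.0829). Srebf2, the factor that drives the pathway, and Insig1, which holds that factor back, did not pass (0.71 ± 0.26, adjusted p = 0.173, and 0.38 ± 0.2, adjusted p = 0.419), and these 3 were chosen after their values were seen. The size of the rise differed between the pairs of day 2 arrays, and the count fell to 3 without day 2 replicates 3 and 4, to 4 without replicate 3, to 4 without replicate 4 and to 5 without day 0 replicate 2, the day 0 array on which most of them were lowest. It was 4 without day 0 replicates 2 and 3 and 9 without day 2 replicates 1 and 2, and a fit on just these 7 arrays gave none in limma, where 18 members were higher and 3 lower at an unadjusted p under 0.05 in the fit on all arrays. Calls were lost for Sqle without day 2 replicate 3 or 4 (adjusted p up to 0.0139), Msmo1 without day 0 replicate 2 or 3 or day 2 replicate 3 or 4 (adjusted p up to 0.0215), Stard4 without day 0 replicate 2 or 3 or day 2 replicate 3 or 4 (adjusted p up to 0.0296) and Idi1 without day 0 replicate 2 or day 2 replicate 1, 2, 3 or 4 (adjusted p up to 0.024).

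**Figure D3:**
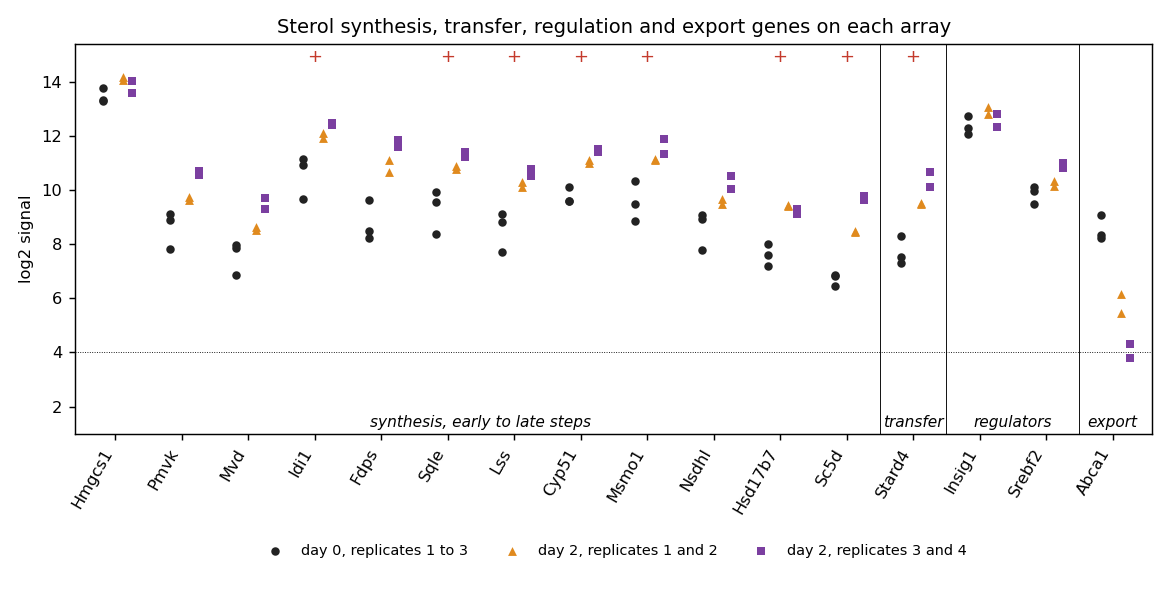
Log2 signal (y axis) of 16 sterol genes on each array, in the order of their steps for the enzymes, with symbols as in the plot of pluripotency genes. The 8 genes marked + were called higher. The purple squares of day 2 replicates 3 and 4 lie at or above the orange triangles for most enzymes and below them for Abca1.

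The promoters of these genes are known to be read by SREBP together with NF-Y, a factor that binds CCAAT boxes. Promoter windows of RefSeq (GRCm38.p6), from 250 bases before to 50 after the annotated start, were searched for the letters CCAAT on either strand, exact matches only, a motif picked after the values were seen. It was present in all 6 of the 8 rising genes that have a window, in 14 of the 16 other measured members with a window, and in 41.1% of the 27025 genes with one. The motif was thus common in members of the list whether or not they passed. The 100 bases just before the annotated start are printed for 4 of the rising genes, 5′ to 3′ on the strand of the gene and in lower case, with CCAAT or its reverse complement ATTGG in capitals, to show where the boxes lie.
Idi1, chr13:8885506-8885605, plus strand: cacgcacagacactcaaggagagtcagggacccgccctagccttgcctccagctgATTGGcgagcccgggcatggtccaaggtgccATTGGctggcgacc
Lss, chr10:76531505-76531604, plus strand: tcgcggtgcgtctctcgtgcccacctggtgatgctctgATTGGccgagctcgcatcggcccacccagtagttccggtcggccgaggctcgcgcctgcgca
Cyp51, chr5:4104698-4104797, minus strand: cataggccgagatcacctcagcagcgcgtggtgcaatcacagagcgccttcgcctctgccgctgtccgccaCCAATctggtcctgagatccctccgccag
Hsd17b7, chr1:169969206-169969305, minus strand: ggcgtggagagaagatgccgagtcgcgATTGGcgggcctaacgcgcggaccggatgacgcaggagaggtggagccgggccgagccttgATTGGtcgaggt
Idi1 and Hsd17b7 hold 2 boxes each in this stretch, and Lss and Cyp51 hold 1 each. A match of letters is a description and no measured binding site.

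Lipid and retinoid genes outside sterol synthesis changed singly. In the fatty acid list 3.12% rose and 6.25% fell, and in the retinoid list 8.33% rose, against 1.67% higher and 2.15% lower of all genes. Of 32 genes of fatty acid synthesis and storage, Fads2, a desaturase, rose (1.57 ± 0.26, adjusted p = 0.00332), and Fabp3, a fatty acid carrier (-2.41 ± 0.47, adjusted p = 0.00825), and Cpt1a, the gate of fatty acid import into mitochondria (-2.37 ± 0.45, adjusted p = 0.00708), fell. All 3 calls were lost with single arrays left out, for Fads2 without day 0 replicate 1 or 3 or day 2 replicate 2 or 3 (adjusted p up to 0.0142), Fabp3 without day 0 replicate 1, 2 or 3 or day 2 replicate 1, 2 or 4 (adjusted p up to 0.0452) and Cpt1a without day 0 replicate 1 or 2 or day 2 replicate 2, 3 or 4 (adjusted p up to 0.0328). Of 24 retinoid genes 2 rose, Rdh11, a retinal reductase, from 6.55, 6.91 and 5.97 to 8.45, 8.75, 9.06 and 8.77 (2.28 ± 0.3, adjusted p = 5.44e-04), and Rxra, the partner of the RA receptors, from 6.28, 6.41 and 6.1 to 7.28, 7.83, 7.35 and 7.82 (1.3 ± 0.16, adjusted p = 3.75e-04). Cyp26a1, which breaks down RA and answers to it, was chosen after its values were seen and stayed low, at 4.63 ± 1.28 at day 0 and 5.11 ± 0.91 at day 2.

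A few matrix genes were lower at day 2, in a list whose day 0 level moved with the fibroblast signal. Of 38 collagen, laminin and other matrix genes 3 were lower, 7.89% against 2.15% of all genes, none was higher, and the median difference was -1.34. Nid1, the basement membrane linker nidogen, was even across the day 0 arrays and read 11.57, 11.70 and 11.36 on the day 0 arrays and 8.35, 8.1, 7.97 and 7.42 on the day 2 arrays (-3.58 ± 0.3, adjusted p = 1.39e-05), 12-fold lower. Col1a1, the fibrillar collagen of fibroblasts, read 8.76, 9.62 and 11.58 on the day 0 arrays and 5.45, 5.44, 4.93 and 4.93 on the day 2 arrays (-4.79 ± 0.72, adjusted p = 0.00138), and Bgn is given above. Without day 0 replicate 1 the count was 11, and without day 0 replicates 2 and 3 it was 2. In the fibroblast marker list 1 of 22 was called lower, Col1a1, and 1 higher, Cxcl12, 4.55% each against 2.15% and 1.67% of all genes. Without day 0 replicate 1 the lower count was 9. The part of the fibroblast signal in the matrix result was not tested beyond these counts.

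Of 42 adhesion and junction genes 5 fell and 2 rose, 11.9% and 4.76% against 2.15% and 1.67% of all genes. Cdh1 (E-cadherin) read 12.51, 12.75 and 12.47 on the day 0 arrays and 12.64, 12.56, 12.57 and 12.53 on the day 2 arrays, overlapping, though its SE was 0.78 (adjusted p = 1), and Cdh2 (N-cadherin) overlapped between them, 7.05 to 9.42 at day 0 and 8.69 to 9.25 at day 2 (0.65 ± 0.4, adjusted p = 0.516). Besides Jam2 and Icam1, Gjb5, a connexin, fell from 7.3, 7.17 and 6.32 to under background (-4.51 ± 0.18, adjusted p = 1.44e-08), Cldn4, a claudin, from 5.49, 6.79 and 5.65 to under background (-3.06 ± 0.35, adjusted p = 1.93e-04), and Pecam1, an adhesion molecule of ES cells and endothelium, from 4.68, 6.23 and 5.21 to under background (-2.2 ± 0.36, adjusted p = 0.00292). The rising pair were protocadherins, Pcdh8 from 6.33, 4.64 and 3.46 to 8.19, 8.69, 7.72 and 8.08 (3.36 ± 0.57, adjusted p = 0.00345), and Pcdh1 from the floor to 4.25, 4.5, 6.3 and 6.35 (3.12 ± 0.43, adjusted p = 7.19e-04). Leaving out 1 array ended the calls of Pecam1 without day 0 replicate 2 (adjusted p up to 0.0109) and Pcdh8 without day 0 replicate 2 or day 2 replicate 1 or 2 (adjusted p up to 0.0167), the latter leaving 1 rise in the list.

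Keratins and other intermediate filament genes gave 4 falls among 18, 22.2% against 2.15% of all genes. Krt42 read 8.54, 8.89 and 10.51 on the day 0 arrays and 5.15, 3.75, 3.55 and 5.19 on the day 2 arrays (-4.9 ± 0.5, adjusted p = 7.26e-05). Lmna, which encodes the nuclear lamins A and C, read 10.45, 11.26 and 10.83 on the day 0 arrays and 7.43, 6.96, 7.53 and 7.96 on the day 2 arrays, 10.4-fold lower (-3.38 ± 0.32, adjusted p = 3.76e-05). That probe set is of a design that may cross-hybridize, and with such probe sets left out the gene was taken by another that showed no difference, though 3 of its 5 probe sets were called. The same held for Cryab, of which 2 of 3 were called. Krt7 is given above, and Krt17, the remaining call, was under background on all 7 arrays. S100a6, a calcium-binding protein of the list of epithelial to mesenchymal transition genes, read 10.36, 12.45 and 11.87 on the day 0 arrays and 8.38, 6.4, 6.28 and 6.59 on the day 2 arrays (-4.65 ± 0.64, adjusted p = 7.43e-04). At day 0 it was lowest on replicate 1, the array with the weakest fibroblast signal. Snai3 and Grhl3, a snail-family and a grainyhead factor, were the other falls of that list of 26 (-2.7 ± 0.34 and -1.96 ± 0.2). The falls made up 11.5% of that list against 2.15% of all genes, and the list had 6 falls without day 0 replicate 1.

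Of 29 interferon and innate response genes 4 fell and 1 rose, 13.8% and 3.45% against 2.15% and 1.67% of all genes. Ifitm1, a membrane protein that ES cells express without interferon, read 12.29, 11.45 and 13.14 on the day 0 arrays and 9.1, 8.44, 7.97 and 9.65 on the day 2 arrays (-3.5 ± 0.59, adjusted p = 0.00338), and its neighbour family member Ifitm3 fell by 1.89 ± 0.35 (adjusted p = 0.00615). Oas1a, an RNA sensor, fell from 4.79, 8.44 and 6.34 to under background (-3.99 ± 0.59, adjusted p = 0.0012), and Ddx58 (RIG-I) by 3.24 ± 0.46 (adjusted p = 8.84e-04). Ifit2, an interferon-induced protein, went the other way, from 2.5, 3.36 and 2.81 to 5.69, 5.25, 6.13 and 5.97 (2.87 ± 0.33, adjusted p = 2.07e-04). The calls were lost for Ifitm1 without day 0 replicate 1 or 3 or day 2 replicate 2 or 3 (adjusted p up to 0.0143) and Ifitm3 without day 0 replicate 1, 2 or 3 or day 2 replicate 1, 2 or 3 (adjusted p up to 0.0248), and 2 falls were called without day 0 replicate 1, 2 without day 2 replicate 2, 2 without day 2 replicate 3 and 1 without day 2 replicates 1 and 2.

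A few further genes were called in lists with 1 to 3 calls each. A single call made up 3.57% of the hypoxia list, 3.23% of the Polycomb list and, in each direction, 3.45% of the imprinted list. The shares of all genes were 1.67% higher and 2.15% lower, so these calls are given for the genes and do not describe the lists. Epas1 (HIF-2 alpha), an oxygen-regulated factor, fell from 11.37, 10.55 and 11.07 to 7.85, 7.11, 7.74 and 8.09 (-3.3 ± 0.32, adjusted p = 4.5e-05), as the only call among 28 hypoxia genes, whose median was -0.22, with 6 lower and none higher at an unadjusted p under 0.05. Without replicate 1 of day 0, the day 0 array with the weakest fibroblast signal, 2 hypoxia genes were called lower. Nnat (neuronatin) rose and Peg10 fell among 29 imprinted genes, Nnat from 6.65, 5.86 and 6.88 to 7.92, 8.57, 8.41 and 9.16 (2.05 ± 0.29, adjusted p = 9.67e-04) and Peg10 from 12.09, 10.74 and 11.87 to 8.72, 9.04, 9.0 and 9.35 (-2.54 ± 0.41, adjusted p = 0.00245). Peg10 lost its call without day 0 replicate 1 or 3 (adjusted p up to 0.0127). Phc2, a Polycomb subunit, rose (1.55 ± 0.24, adjusted p = 0.0016), as the only call among 31 Polycomb and trithorax genes.

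In signalling and stress lists, Rbpj, the DNA-binding effector of Notch, fell (-1.7 ± 0.16, adjusted p = 2.96e-05), as did Tead1, a partner of YAP (-1.46 ± 0.19, adjusted p = 5.28e-04), whose relative Tead2 rose. Tead1 and Tead2 were the calls among 34 actin, SRF and YAP genes, 2.94% in each direction against 2.15% lower and 1.67% higher of all genes. That list had 6 falls without day 0 replicate 1 and none without day 0 replicates 2 and 3. Sufu, an inhibitor of hedgehog signalling, rose by 1.15 ± 0.18 (adjusted p = 0.00189), and without day 0 replicate 3 the hedgehog list had 2 rises. Of 26 CDK inhibitors and p53 targets 1 rose and 2 fell, 3.85% and 7.69% against 1.67% and 2.15% of all genes, with a median of -0.44. Pmaip1 (Noxa), a BH3-only gene that promotes apoptosis, rose (1.66 ± 0.27, adjusted p = 0.00232), and Plk2 and Eda2r fell (-1.3 ± 0.2 and -1.53 ± 0.23), with 4 falls in the list without day 2 replicate 3 and 1 without day 0 replicate 2. Cth, an enzyme of cysteine synthesis (-1.81 ± 0.3), and Txnip, a thioredoxin inhibitor (-1.9 ± 0.31), also fell, and without day 2 replicate 4 the oxidative stress list that holds Txnip had 2 falls. Of 27 germ cell genes 2 fell, 7.41% against 2.15% of all genes, and 5 without day 0 replicate 3. They were Prdm1 (Blimp1), a repressor that specifies germ cells (-3.38 ± 0.44, adjusted p = 4.6e-04), and Stag3, a meiotic cohesin (-2.35 ± 0.28, adjusted p = 2.15e-04). Among 25 blood, endothelial and cardiac genes, 18 had both group means under background. Tek (Tie2), a receptor of endothelial cells, fell from 7.58, 7.85 and 7.5 to 3.46, 2.79, 3.42 and 3.86. It was the only call of the list, 4% against 2.15% of all genes. That count was 3 without day 0 replicate 2 and 5 without day 0 replicates 2 and 3. Mbnl2 and Rbm47, RNA-binding proteins, also fell (-1.94 ± 0.34 and -2.51 ± 0.34). Single arrays cost the calls of Sufu without day 0 replicate 2 (adjusted p up to 0.0112), Plk2 without day 0 replicate 2 (adjusted p up to 0.0108), Cth without day 0 replicate 2 (adjusted p up to 0.0128), Txnip without day 0 replicate 1 or 2 (adjusted p up to 0.0144) and Mbnl2 without day 0 replicate 1 or 2 or day 2 replicate 2, 3 or 4 (adjusted p up to 0.0239).

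In limma 1.67% of all genes were called higher and 2.15% lower, and housekeeping and cell cycle lists showed no called gene. These were DNA replication (36 genes measured, 4 higher and 1 lower at an unadjusted p under 0.05), mitosis (29 genes, 0 and 2), ribosome biogenesis and translation (29, 2 and 0), glycolysis (23, 1 and 3), oxidative phosphorylation (34, 2 and 2), apoptosis regulators (22, 2 and 4), and heat shock and unfolded protein response (28, 7 and 2). Over all 18193 genes, 1769 were higher and 2088 lower at that unadjusted p. As shares, the rises of the heat shock and unfolded protein list and the falls of the apoptosis list stood furthest above those of all genes. The medians of these lists lay between -0.04 and 0.16. Immediate early genes of the serum response (27 genes) also had no call, and their median was -0.93, with 11 of them lower and none higher at an unadjusted p under 0.05. Their level varied among replicates of 1 group, as the median of the list was 7.67, 9.22 and 7.94 on the day 0 arrays and 6.51, 6.58, 8.08 and 7.46 on the day 2 arrays.

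**Figure D4:**
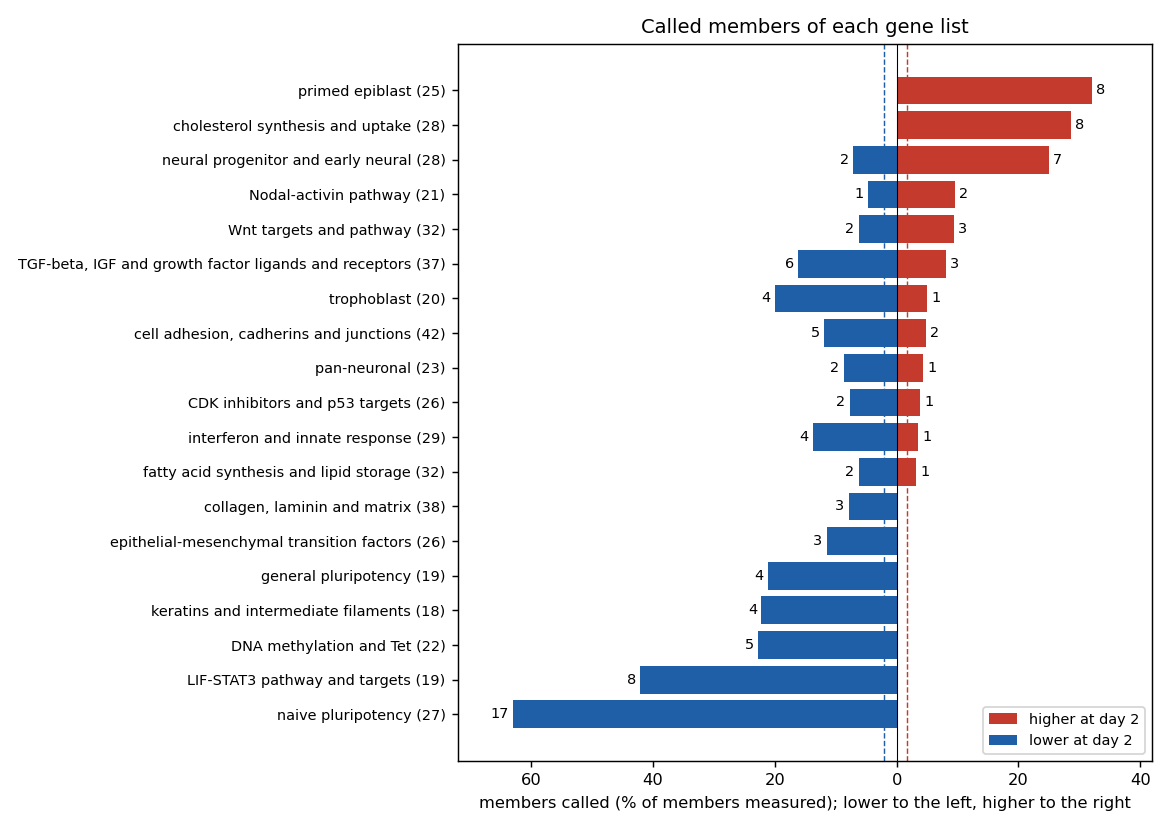
Share of the measured members of each gene list that were called higher (red, right) or lower (blue, left) at day 2, for lists with 3 or more calls, with the number called at the end of each bar and the number measured in brackets. Dashed lines mark the shares over all genes tested, 1.67% higher and 2.15% lower. Naive and LIF-STAT3 genes reach furthest to the left and primed, sterol and neural progenitor genes furthest to the right.

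The levels of the called genes at the later stages, described here without a test, were as follows. After 8 h of RA at day 2, 29 of the 304 higher genes had a mean within 1 log2 unit of day 0 or beyond it, and at day 3 of neural precursors this held for 95 of them (31.2%). Of the 392 lower genes it held for 46 after RA and 52 (13.3%) at day 3. At day 7, in postmitotic motor neurons, 108 of the higher genes (35.5%) and 77 of the lower ones (19.6%) were near or past their day 0 level. These groups differ from day 0 in far more than the first 2 days, and they had 2 or 3 arrays each.

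Some rises were seen at day 2 and not at day 3. Fgf5 stood at 9.14 ± 0.22 at day 2, at 5.67 ± 0.48 after 8 h of RA and at 2.33 ± 0.09 at day 3, Calcr at 7.19 ± 0.56, 5.32 ± 0.33 and 2.24 ± 0.0, and Slc35d3 at 8.24 ± 0.34, 6.89 ± 0.13 and 2.68 ± 0.37. Wnt8a stood at 6.5 ± 0.11 at day 2, was higher after RA at 7.83 ± 0.33, and lay at the floor at day 3. Other rises began levels that later groups also had. Sp8 went from 7.41 ± 0.81 at day 2 to 10.68 ± 0.16 at day 3 and 11.27 ± 0.21 at day 4, Sox1 from 9.74 ± 0.44 to 11.92 ± 0.23 and 11.38 ± 0.12, and Fabp7 reached 13.63 ± 0.14 at day 7 from 7.03 ± 0.81 at day 2.

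Among the falls, Klf2, Esrrb and Zfp42 were lower still at day 3, at 4.2 ± 0.65, 3.21 ± 0.23 and 4.52 ± 0.82. Jam2 and Inhbb were at high levels again in motor neurons at day 7, with 9.9 ± 0.21 and 8.19 ± 0.56. Peg10 was at 9.03 ± 0.26 at day 2 and at 11.87 ± 0.51 at day 3, near its day 0 level of 11.57 ± 0.72. Tet2 stood at 11.59 ± 0.32 at day 0, 8.65 ± 0.91 at day 2 and 11.24 ± 0.11 on the RA arrays.

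**Figure D5:**
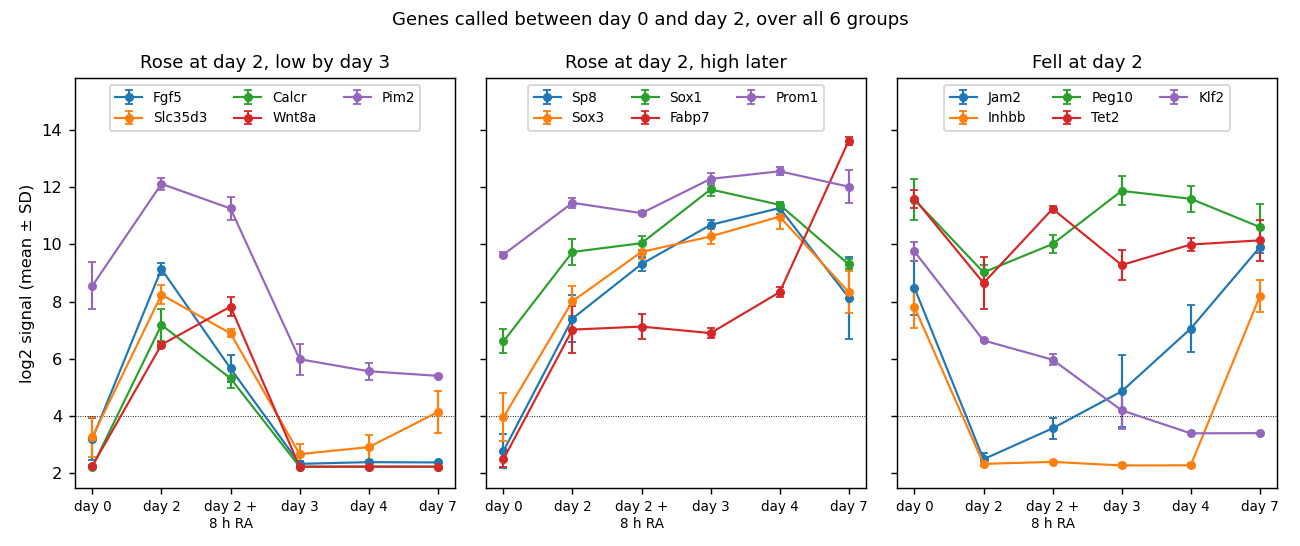
Mean log2 signal ± SD (y axis) of 15 called genes in the 6 groups (x axis: day 0, day 2, day 2 with 8 h of RA, days 3, 4 and 7), with 2 to 4 arrays a group and the genes picked after their values were seen. In the left panel the levels at day 3 lie below those at day 2, Pim2 included, in the middle panel they stay or climb, and in the right panel Jam2 and Inhbb return by day 7 while Klf2 does not.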

How the data were processed

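Gene expression was measured on 18 single-channel Affymetrix arrays of mouse cells, of which 3 of day 0 ES cells and 4 of day 2 embryoid bodies were compared. RNA was amplified before hybridization, and the methods describe biological triplicates without naming the cultures. The p-values rest on the spread within the 6 groups of the 18 arrays, not on that of the 7 arrays compared. Irak3, with an SD of 0.81 at day 0, had an SE of 0.25. Cdh1, with SDs of 0.15 at day 0 and 0.04 at day 2 but 2.27 at day 7, had an SE of 0.78. The authors normalized all arrays together with GCRMA, and the deposited log2 values were used as given. GCRMA computes each gene's value across arrays and presses weak probe sets onto a floor, so small differences near background are unreliable, and the depth of a read count does not apply to arrays. How many arrays there were sets the precision.

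Of 45101 probe sets, 64 controls were left out, and 34945 carried 1 gene symbol, 932 several and 9160 none. Probe sets with 1 symbol gave 18193 genes. Where a gene had several, its brightest (by mean level on the 18 arrays) stood for it. limma 3.58.1 in R 4.3.3 was fitted to all 18 arrays with 6 group means and moderated variances. p-values were adjusted by the Benjamini-Hochberg method over all 45037 probe sets, and calls needed an adjusted p under 0.01 together with a change of at least 2-fold. The procedure was tested on simulated data. Tables were handled with pandas 2.3.3 in Python 3.11.15 and figures drawn with matplotlib 3.10.9.

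Genes named were the 15 most strongly raised and the 15 most strongly lowered called genes with non-overlapping values and a group mean of at least log2 6, up to 6 called members in each direction of each of 49 gene lists, and a core of 27 genes, of which those measured are given. Other genes are said to be chosen after their values were seen. Members and lists were chosen with earlier results of these data known. Alternatives changed the arrays fitted, the moderation, the handling of dim probe sets, the scaling, the choice of probe set and the thresholds, and left out each array in turn. Whether replicate numbers pair the samples is not given by the labels, and the main fit did not pair them (see the closing section). Some members of the core and of the lists are not reported here.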

Additional observations from a re-analysis of the deposited data

Results flagged for a closer look

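For 3 of 143 genes compared, 1 of the 4 day 2 arrays stood far from the others. Most of these genes were named because they were called, and the day 2 arrays formed pairs, so this count cannot be set against chance. Rhox6 read 4.73 on replicate 4 against 3.28 to 3.4 on the others. S100a4 read 7.56 on replicate 1 against the floor of 2.23 on the others, and S100a6 read 8.38 on the same array against 6.28 to 6.59. The group of 3 day 0 arrays was too small for this comparison.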

How the results depend on the processing

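Against 304 genes higher and 392 lower, the 7 arrays of the 2 groups alone gave 21 and 33. With the replicate number as a block, a replicate block fit on those arrays, limma called 0 and 0 (476 and 644 at an unadjusted p under 0.05 and at least 2-fold). The block terms left that fit little to estimate the spread from, so its lack of calls decides nothing. In it 680 of the 696 called genes still differed at least 2-fold in the same direction. The labels do not say whether a shared number marks a shared culture or batch. Deviations of same-numbered arrays from their group means correlated at 0.239, 0.044 and 0.040. With 3 and 4 arrays a group, and uneven arrays in both, these values cannot decide whether the samples were paired. An adjusted p under 0.05 gave 494 and 657, and a minimum of 4-fold gave 161 and 236. A further 2 alternatives were chosen after seeing the data. The 2 groups alone with dim probe sets left out and a variance trend gave 76 and 134, and leaving out day 0 replicates 2 and 3 gave 240 and 406. Without day 2 replicates 3 and 4 there were 156 higher genes. Higher genes made up 43.7% of calls, 57.6% without day 2 replicates 1 and 2 and 33.3% without replicates 3 and 4. Leaving out 1 array at a time gave 209 to 297 higher and 298 to 467 lower.

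Of 129 called genes named by the rule, the 2 groups alone kept a count of 20, the block 0, the added fit 59, and single arrays left out 105 to 115. Of 118 called members of the 49 lists, these counts were 16, 0, 53 and 95 to 139, and 183 at an adjusted p under 0.05. With probe sets that may cross-hybridize left out, 571 of the 696 called genes kept their call, and some had no probe set left. Of 129 called genes in the text that still had one, 121 kept the call and 6 lost it without changing direction. The other 2, Cryab (0.00034) and Lmna (0.010), lost their difference, since other probe sets of them then stood for the gene. Arrays give no depth, and at 55.8% to 56.9% of probe sets under background per array, many genes could not be measured in either group.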
